A study of Homo sapiens with 11 samples.

Results

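The genes of the eukaryotic translation initiation factors (eIFs) were taken from the deposited table as the protein-coding genes whose symbols begin with EIF1, EIF2, EIF3, EIF4, EIF5 or EIF6, without the EIF2AK kinases. The rule found 52 genes among the 58735 listed. It uses names and no measured value. Messenger RNA (poly(A)-selected) was sequenced from HEK293T cells, a derivative of the adenovirus-transformed embryonic kidney line HEK293 that carries the SV40 large T antigen, in 11 libraries of 4 groups. Cells were collected 48 h after transfection with siRNA against NAE1 at 50 nM (siNAE1, n = 3 libraries), UBE2M at 70 nM (siUBE2M, n = 3) or URM1 at 60 nM (siURM1, n = 2). The labels give the control group (n = 3) as control siRNA without a dose, and whether these cells were transfected in the same way was not tested. NAE1 and UBE2M are enzymes of the neddylation pathway, which attaches the ubiquitin-like protein NEDD8 to cullins. URM1 is a ubiquitin-like protein that also carries sulfur for the modification of certain tRNAs.

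Translation begins when eIF2, loaded with GTP and the initiator tRNA, joins eIF1, eIF1A, eIF3 and eIF5 on the small ribosomal subunit. The cap-binding factor eIF4E, the scaffold eIF4G and the helicase eIF4A bring the mRNA to this complex, and eIF4B and eIF4H assist the helicase. eIF2B reloads eIF2 with GTP, eIF4E-binding proteins block the contact of eIF4E with eIF4G, and eIF5B joins the large ribosomal subunit. Several mRNAs of the translation machinery start with a C and a run of pyrimidines, the 5′ terminal oligopyrimidine (TOP) tract, through which their translation is set by growth signals.

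The annotated starts of the genes are shown first, because the presence of such a tract is a feature that the choice of genes did not use. In the RefSeq table of GRCh38.p14, 44 of the 52 genes were matched by symbol, and EIF2S2, EIF3A, EIF3CL, EIF3E, EIF3G, EIF3H, EIF3L and EIF4EBP1 were not. A tract was counted where the annotated first base was C and at least 4 more pyrimidines followed on the transcribed strand, and 10 of the 44 genes (22.7%) had one. Such a tract was present in 4.07% of all 35116 windows, and among the 11019 protein-coding genes that were tested for expression and matched the share was 7.21%. Each line gives 10 bases before the annotated start and 20 from it, 5′ to 3′ on the transcribed strand, with the tract in capitals.
EIF2A: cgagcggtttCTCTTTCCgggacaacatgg
EIF2D: ccagccgggcCCTTTTCgcggccgggcccc
EIF2S3: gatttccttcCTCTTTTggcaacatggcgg
EIF2S3B: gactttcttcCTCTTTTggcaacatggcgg
EIF3D: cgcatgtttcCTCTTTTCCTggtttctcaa
EIF3F: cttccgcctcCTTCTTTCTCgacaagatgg
EIF3K: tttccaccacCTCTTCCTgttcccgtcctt
EIF3M: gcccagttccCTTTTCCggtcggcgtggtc
EIF4A2: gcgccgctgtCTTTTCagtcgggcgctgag
EIF4B: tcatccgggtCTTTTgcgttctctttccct
The tracts ran from 5 bases in EIF4B to 10 in EIF3D and EIF3F, and the capitals of EIF2S3 and its copy EIF2S3B were the same. For contrast, 2 genes whose changes are described later had no tract in these windows.
EIF1: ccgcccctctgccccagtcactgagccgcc
EIF5B: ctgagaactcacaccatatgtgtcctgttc
The printed window of EIF4B lies at chr12:53006446-53006475 (+), with the annotated start at position 53006456. That of EIF2S3 lies at chrX:24054946-24054975 (+), with the start at 24054956, and that of EIF2D at chr1:206612446-206612475 (-), with the start at 206612465. The windows are annotated starts, and the start that these cells use was not measured.

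Total counts per library ranged from 11733163 to 16321391, and 18368 genes passed the filter on low counts and were tested. The labels number the libraries as biological replicates, without saying whether they came from separate cultures, so the p-values measure the spread between libraries. Each targeted gene was lower in its own knockdown. NAE1 was at 38.9% of the control mean in siNAE1 libraries, UBE2M at 6.34% in siUBE2M libraries and URM1 at 28.6% in siURM1 libraries, in CPM, which are counts scaled to the library total and a TMM factor. All 7 genes of a list of HEK293T markers were tested, at control means of 10.0 (PAX2) to 174 CPM (VIM), and several moved with the groups. In siNAE1, siUBE2M and siURM1 cells the log2 fold changes were 1.19, -0.12 and 1.19 for NEFM, 0.42, 0.95 and 0.74 for VIM, -0.08, -0.90 and 0.92 for PAX2, and 0.50, -0.37 and 0.57 for KRT8, while those of KRT18, CDH2 and NEFL lay between -0.13 and 0.75. The part of these differences in the results was not tested. ALB, AFP, APOA1 and PTPRC, markers of hepatocytes and leukocytes, had only 5 to 40 counts in total over the 11 libraries. The fibroblast collagen COL1A1 was measured at 21.0 CPM in control libraries, and was higher in siUBE2M cells (log2 fold change 0.38, edgeR adjusted p = 0.0035). In siNAE1 and siURM1 cells its values were -0.21 and 0.10, with edgeR adjusted p values of 0.11 and 0.54.

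In control cells the 49 tested genes spanned, in FPKM, from EIF5A2 to EIF4EBP1. Levels are compared here in FPKM, as computed by the authors per kilobase of a listed gene length that pools the exons of all transcripts. EIF4EBP1, an eIF4E-binding protein, stood at 382 ± 16.2 FPKM (SD, n = 3) and EIF1 at 362 ± 11.1, followed by EIF3I at 233 ± 12.6 and EIF5A at 222 ± 6.39. The libraries of EIF4EBP1 and EIF1 overlapped, as did those of EIF3I and EIF5A, whereas the gap between these pairs was larger than the SDs. These SDs do not measure error in the listed lengths. At the other end, EIF5A2 was at 1.31 ± 0.160 FPKM and EIF2S3B at 1.59 ± 0.246, and their libraries overlapped. The order depends on the listed length, which is 1073 bases for EIF4EBP1 and 3623 for EIF1. In CPM the control mean of EIF1 was 1321 and that of EIF4EBP1 414, below EIF4G2 at 657. EIF2S3B, at 3.875 CPM, was then below EIF5A2, at 7.383.

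**Figure D1:**
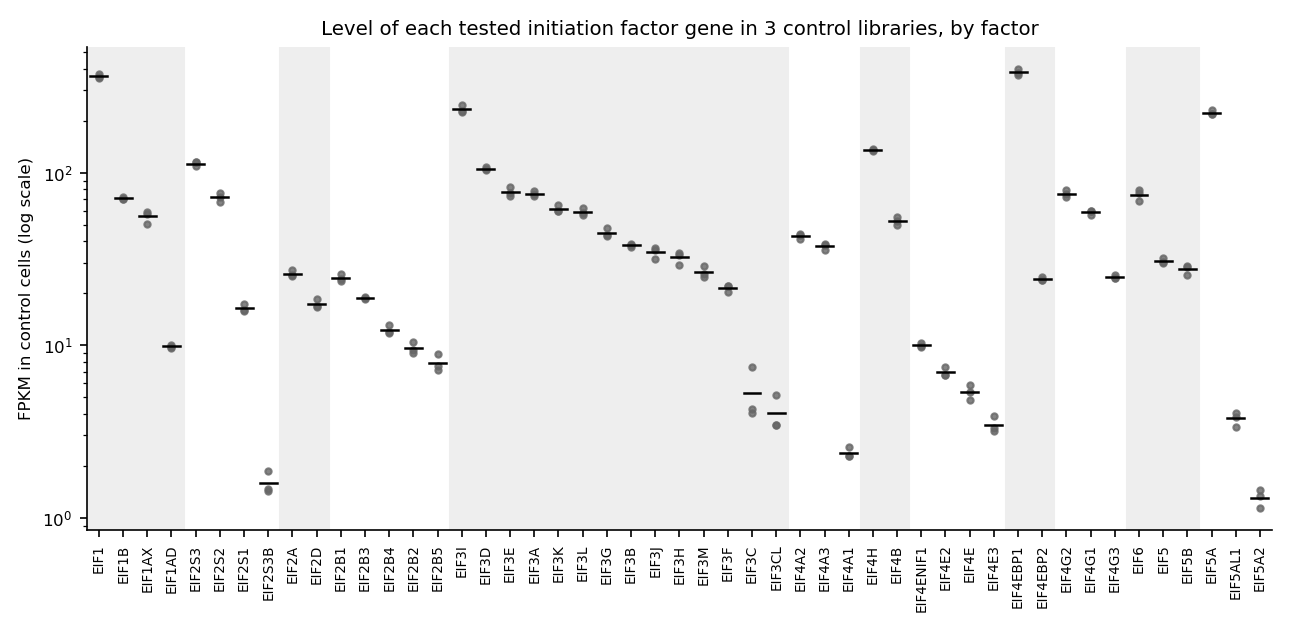
Level of each of the 49 tested genes in the 3 control libraries, in FPKM on a log scale, with genes grouped by factor (shaded blocks), each library a point and the mean a line. On this scale, which divides by the listed gene length, EIF4EBP1 (382 FPKM) and EIF1 (362 FPKM) were the highest. EIF3C (5.26 FPKM) and EIF3CL (4.02 FPKM) stood below the other eIF3 subunits, of which EIF3F (21.6 FPKM) was the lowest.

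The subunits of single complexes were at unequal FPKM values, which depend on the listed gene lengths. Among the eIF3 subunits the value ran from 21.6 ± 0.951 FPKM (EIF3F) to 233 FPKM (EIF3I), apart from EIF3C at 5.26 ± 1.89 and EIF3CL at 4.02 ± 0.985. EIF3F is listed at 9431 bases and EIF3I at 1725, and in CPM their control means were closer, at 205 and 405. EIF3C and EIF3CL are near-identical copies on chromosome 16, so fragments that fit both may be divided or dropped, and their levels are uncertain. In eIF2, the alpha subunit EIF2S1 was at 16.3 ± 0.874 FPKM, the beta subunit EIF2S2 at 72.2 ± 4.32 and the gamma subunit EIF2S3 at 113 ± 3.62, with no overlap between libraries. Of the helicases, EIF4A2 was at 42.9 ± 1.75 FPKM and EIF4A1 was listed at 2.37 ± 0.176. The EIF4A1 value is uncertain: 47.4% of its exonic bases in GENCODE v44 are shared on the same strand with the overlapping gene ENSG00000264772, and the processed pseudogene EIF4A1P10 received 147 to 289 counts per library beside 172 to 230 for EIF4A1.

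Of the 52 genes, 3 were under the filter. EIF1AY, the Y-linked copy of EIF1AX, had 0 counts in every library, and EIF4E1B, a germ-cell relative of EIF4E, had 0 to 4 counts. EIF4EBP3 had 0 to 6 counts, and 73.2% of its exonic bases are shared with the readthrough gene ANKHD1-EIF4EBP3, which had 31 to 88. These 3 genes have no test.

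Most initiation factor genes differed from control in each knockdown, and most differences were small. Calls were made at an adjusted p under 0.05 (quasi-likelihood test of edgeR, adjusted by Benjamini-Hochberg over all 18368 genes). In siNAE1 cells 27 of the 49 tested genes were higher and 9 lower, against 27.6% and 27.1% of all tested genes. In siUBE2M cells 22 were higher and 12 lower, against 22.7% and 22.6% of all. In siURM1 cells 20 were higher and 17 lower, against 20.8% and 20.8% of all. As shares of the 49, the higher genes made up 55.1%, 44.9% and 40.8% and the lower genes 18.4%, 24.5% and 34.7%. The median log2 fold change of the 49 was 0.21, 0.13 and -0.05 in siNAE1, siUBE2M and siURM1 cells, beside -0.002, 0.007 and -0.021 over all tested genes. Scaling by library totals alone shifted the median of all genes to -0.127, -0.050 and -0.111 and that of the 49 to 0.087, 0.073 and -0.137. With it 21, 20 and 18 of the 49 were higher and 11, 16 and 21 lower. Of all tested genes 21.0%, 18.6% and 16.2% were then higher and 33.9%, 25.9% and 25.9% lower. In siURM1 cells more of the 49 were then lower than higher, as was so among all genes. A change of at least 1 on the log2 scale was called for 3, 3 and 2 of the 49 genes, against 13.9%, 7.11% and 7.62% of all. All 3 comparisons share the control libraries, so their values are given side by side and no agreement between them is tested.

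**Figure D2:**
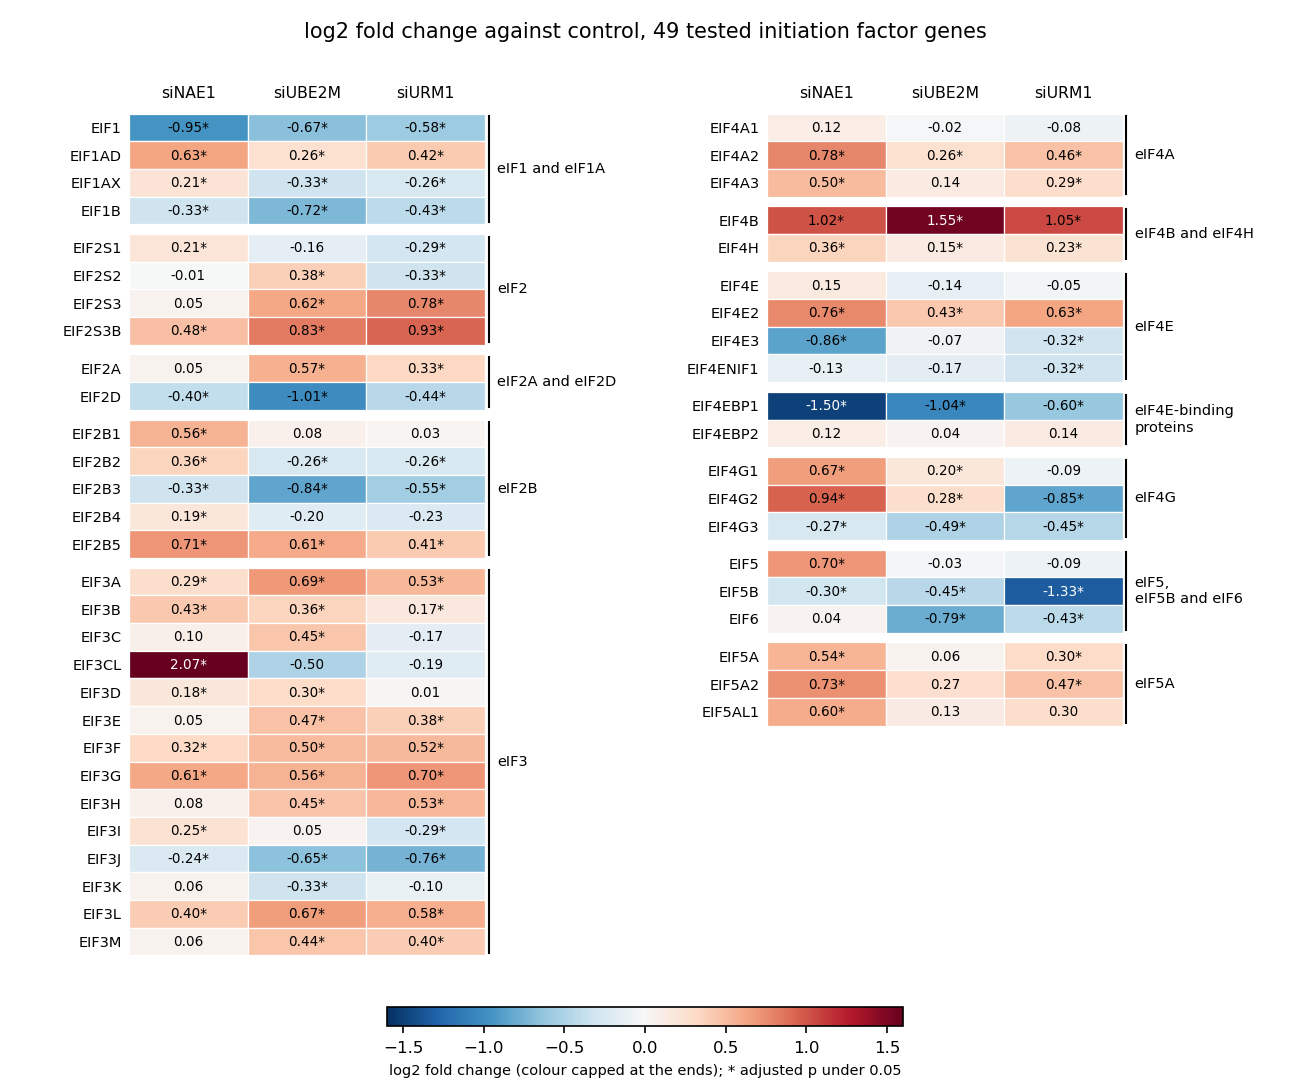
Log2 fold change of the 49 tested genes against control in the 3 knockdowns, in rows grouped by factor, with red for higher and blue for lower and a star for an adjusted p under 0.05 (edgeR). EIF4B was red in all 3 columns (1.02, 1.55 and 1.05), EIF4EBP1 was blue in all 3 (-1.50, -1.04 and -0.60), and EIF4G2 passed from red (0.94) to blue (-0.85).

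By their calls, 12 of the 49 genes were higher in every knockdown, against 9.3% of all tested genes: EIF1AD, EIF2B5, EIF2S3B, EIF3A, EIF3B, EIF3F, EIF3G, EIF3L, EIF4A2, EIF4B, EIF4E2 and EIF4H. Another 8 were lower in every knockdown, against 9.62% of all: EIF1, EIF1B, EIF2B3, EIF2D, EIF3J, EIF4EBP1, EIF4G3 and EIF5B. Calls in both directions were found for 6 genes, EIF1AX, EIF2B2, EIF2S1, EIF2S2, EIF3I and EIF4G2, against 6.69% of all. The 3 genes EIF4A1, EIF4E and EIF4EBP2 were called in no knockdown, against 26% of all. The other 20 were called in 1 or 2 knockdowns in 1 direction, and for this pattern the share of all genes is what the shares above leave. Since a shared control can place a gene on the same side in each comparison, these counts are a description. Scaling by library totals alone ended the calls of EIF1AX, EIF2B4, EIF2S1, EIF2S3B, EIF3D and EIF3I in siNAE1, EIF3C and EIF4H in siUBE2M, and EIF3B and EIF5A2 in siURM1 cells. DESeq2, with all groups or 2 groups per fit, ended those of EIF2B4 and EIF2S3B in siNAE1, EIF3C in siUBE2M, and EIF2B2, EIF4E3 and EIF5A2 in siURM1 cells.

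EIF4EBP1 was lower in every knockdown. It encodes 4E-BP1, which binds eIF4E and keeps it from eIF4G (ENSG00000187840, chr8:38030341-38060365 on GRCh38). Its level was 414, 430 and 397 CPM in the control libraries, 134, 148 and 157 in siNAE1, 190, 192 and 220 in siUBE2M, and 267 and 278 in siURM1. Every knockdown library lay below every control library, and the 3 knockdowns did not overlap each other. The log2 fold changes were -1.50 (SE 0.0670) in siNAE1, -1.04 (SE 0.0656) in siUBE2M and -0.60 (SE 0.0733) in siURM1 cells, with adjusted p values of 2.6e-18, 2.8e-14 and 5.5e-08 in edgeR. The siNAE1 level was lower than the siUBE2M level by 0.46 on the log2 scale (difference -0.46, SE 0.0670, edgeR adjusted p = 1.3e-06). The siUBE2M level was lower than the siURM1 level (difference -0.44, SE 0.0726, edgeR adjusted p = 1.3e-05). The related binding protein gene EIF4EBP2 was at 24.2 FPKM in control cells and gave 0.12, 0.04 and 0.14, none of which passed the test.

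EIF4B, the stimulator of the eIF4A helicase, was the gene with the largest increase among those at 10 CPM or more that did not depend on near-identical copies (ENSG00000063046, chr12:53006158-53042209). Its level was 312, 324 and 343 CPM in control libraries, 668, 691 and 624 in siNAE1, 972, 957 and 940 in siUBE2M, and 688 and 664 in siURM1. All knockdown libraries lay above all control libraries, and siUBE2M lay above both other knockdowns, which overlapped. The siUBE2M mean was 293% of control (log2 fold change 1.55, SE 0.0583, edgeR adjusted p = 8.6e-20), the siNAE1 mean 203% (1.02, SE 0.0579, 9.3e-16) and the siURM1 mean 207% (1.05, SE 0.0631, 1.6e-14). Against siURM1, siUBE2M cells had 0.50 more on the log2 scale (SE 0.0643, edgeR adjusted p = 2.2e-07), while siNAE1 cells differed by -0.03 (SE 0.0636, edgeR adjusted p = 0.73). EIF4H, which has the same helper role, rose in each knockdown by 0.36, 0.15 and 0.23. Its siUBE2M call was lost without control replicate 1, control replicate 2 or siUBE2M replicate 3, with values of 0.11 to 0.15.

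EIF4A2, a helicase gene, was higher in each knockdown, most in siNAE1 cells. Its level was 255, 267 and 274 CPM in control, 455, 482 and 435 in siNAE1, 310, 305 and 338 in siUBE2M, and 365 and 368 in siURM1 libraries. The 4 groups did not overlap, with siUBE2M nearest to control. Against control the log2 fold changes were 0.78 (SE 0.0593), 0.26 (SE 0.0593) and 0.46 (SE 0.0655), with edgeR adjusted p values of 8.8e-13, 5.8e-04 and 7.8e-07. EIF4A3, the related helicase of the exon junction complex, rose by 0.50 in siNAE1 and 0.29 in siURM1 cells and gave 0.14 in siUBE2M cells, where it missed the threshold. EIF4A1, whose level is uncertain, gave 0.12, -0.02 and -0.08.

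The eIF4E family moved unevenly. EIF4E itself gave 0.15, -0.14 and -0.05 and passed no test. EIF4E2, which encodes the repressive cap-binding protein 4EHP, was at 48.7, 53.7 and 48.5 CPM in control libraries, 82.7, 88.9 and 84.4 in siNAE1, 64.7, 65.4 and 73.7 in siUBE2M, and 73.8 and 81.9 in siURM1. All knockdown libraries were above control, and the log2 fold changes were 0.76 (SE 0.0759), 0.43 (SE 0.0762) and 0.63 (SE 0.0834), with edgeR adjusted p values of 3.8e-10, 2.0e-05 and 2.6e-07.

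EIF4E3, a cap-binding relative at a low level, was at 34.7, 35.7 and 42.2 CPM in control, 22.0, 22.6 and 17.3 in siNAE1, 36.9, 36.8 and 33.9 in siUBE2M, and 32.1 and 27.9 in siURM1 libraries. The siNAE1 libraries lay below all others, the siURM1 libraries lay just under control, and siUBE2M overlapped control. The log2 fold change was -0.86 (SE 0.104, edgeR adjusted p = 2.3e-08) in siNAE1, -0.07 (SE 0.0982, edgeR adjusted p = 0.62) in siUBE2M and -0.32 (SE 0.111, edgeR adjusted p = 0.021) in siURM1 cells. The siURM1 call was lost without control replicate 3 (-0.22, edgeR adjusted p = 0.15) and without siURM1 replicate 2 (-0.22, edgeR adjusted p = 0.25). EIF4ENIF1, which carries eIF4E to processing bodies, was lower in siURM1 cells (-0.32), a call lost without siURM1 replicate 1 (-0.22, edgeR adjusted p = 0.12).

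EIF4G2 was called in opposite directions in different knockdowns. It encodes DAP5, a relative of eIF4G that lacks the eIF4E-binding site (ENSG00000110321, chr11:10797050-10809110). Its level was 634, 650 and 688 CPM in control, 1291, 1301 and 1194 in siNAE1, 812, 790 and 790 in siUBE2M, and 367 and 363 in siURM1 libraries. No groups overlapped, with siNAE1 highest, siUBE2M a little above control and siURM1 below it. Against control the log2 fold change was 0.94 (SE 0.0561, edgeR adjusted p = 3.0e-15) in siNAE1, 0.28 (SE 0.0558, 1.2e-04) in siUBE2M and -0.85 (SE 0.0644, 2.9e-12) in siURM1 cells. Compared directly, siNAE1 cells had 346% of the siURM1 mean (log2 fold change 1.79, SE 0.0667, edgeR adjusted p = 1.2e-19) and siUBE2M cells 218% (1.13, SE 0.0650, 9.8e-15).

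The main scaffold EIF4G1 was at 473 to 502 CPM in control and 770 to 804 CPM in siNAE1 libraries, a rise of 0.67, with 0.20 in siUBE2M cells, which was also called, and -0.09 in siURM1 cells, which was not. EIF4G3, another scaffold paralogue, fell in every knockdown. Its level was 238, 235 and 248 CPM in control, 198, 203 and 195 in siNAE1, 171, 174 and 167 in siUBE2M, and 176 and 175 in siURM1 libraries, and no knockdown library reached control. Its log2 fold changes were -0.27 (SE 0.0570), -0.49 (SE 0.0571) and -0.45 (SE 0.0643), with edgeR adjusted p values of 1.4e-04, 1.6e-08 and 8.8e-07.

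**Figure D3:**
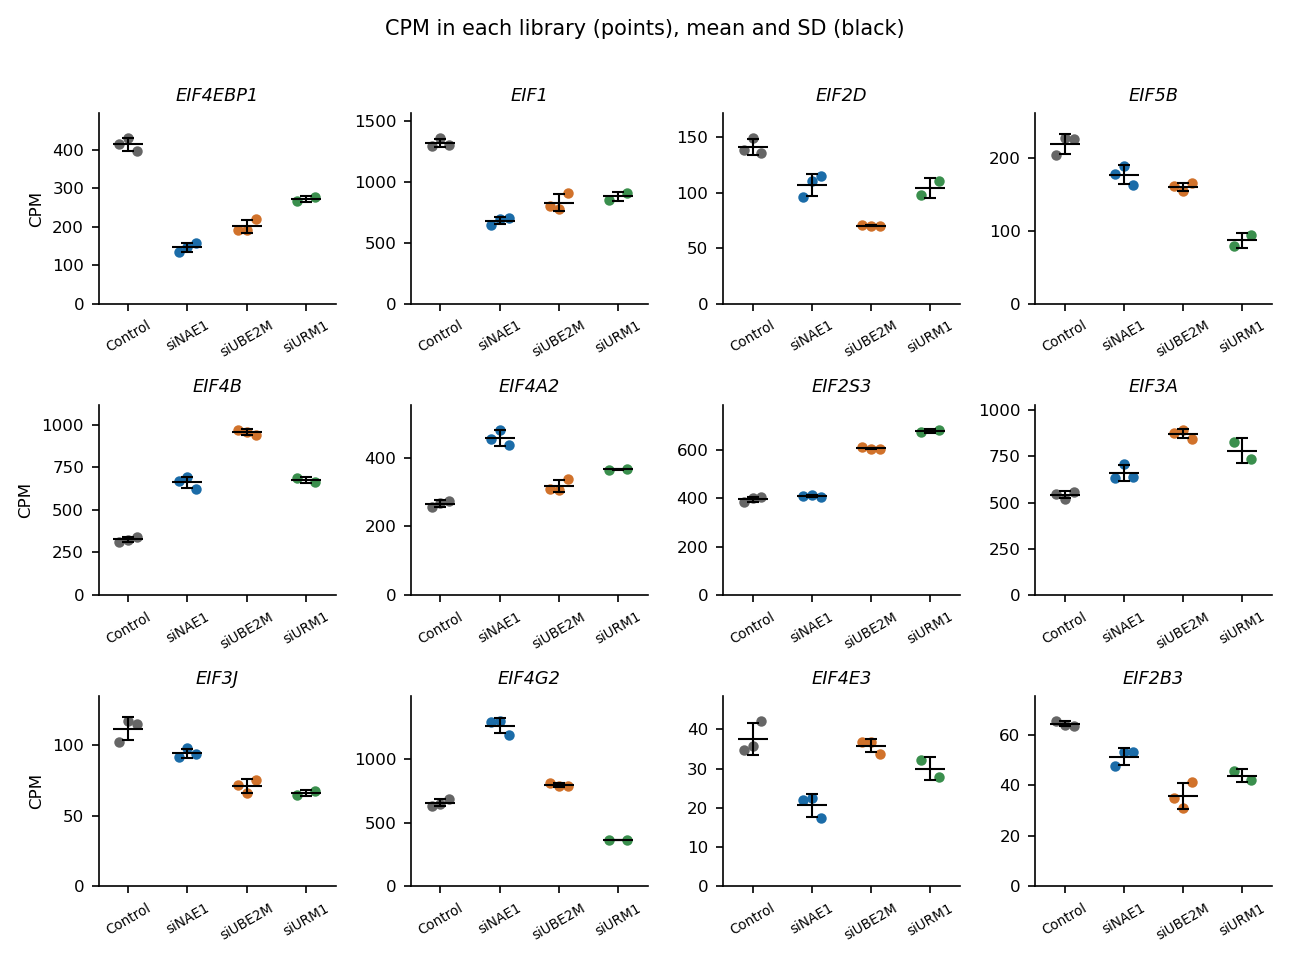
CPM (TMM-scaled counts, linear axes from 0) of 12 genes in each library, with the group mean and SD in black (n = 3, 3, 3 and 2). EIF4EBP1, EIF1, EIF2D and EIF5B were below control in every knockdown library, EIF4B and EIF4A2 above it, and EIF4G2 was above control in siNAE1 and siUBE2M and below it in siURM1 libraries.

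The start-site selection factors eIF1 and its copy eIF1B fell in every knockdown. EIF1, which guards the choice of the AUG codon, was at 1298, 1361 and 1304 CPM in control, 650, 696 and 702 in siNAE1, 806, 780 and 908 in siUBE2M, and 856 and 907 in siURM1 libraries. All knockdown libraries lay below control, siNAE1 lay below the other knockdowns, and siUBE2M and siURM1 overlapped. In the order siNAE1, siUBE2M and siURM1 the log2 fold changes were -0.95 (SE 0.0602), -0.67 (SE 0.0599) and -0.58 (SE 0.0677), with edgeR adjusted p values of 1.3e-14, 8.5e-11 and 2.1e-08. EIF1B gave -0.33, -0.72 and -0.43, all called. EIF1AX, the X-linked gene of eIF1A, which shares near-identical sequence with EIF1AY, was higher in siNAE1 (0.21) and lower in siUBE2M (-0.33) and siURM1 cells (-0.26). The siNAE1 call of EIF1AX was lost without control replicate 1 (0.15, edgeR adjusted p = 0.073). EIF1AD, whose protein has a domain like that of eIF1A, rose by 0.63, 0.26 and 0.42.

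The genes of eIF2, which carries the initiator tRNA, did not move together. The gamma subunit gene EIF2S3 was at 383, 400 and 404 CPM in control, 412, 413 and 406 in siNAE1, 611, 605 and 605 in siUBE2M, and 673 and 685 in siURM1 libraries. The siUBE2M and siURM1 libraries lay well above the rest, while siNAE1 lay just above control. Its log2 fold change was 0.62 (SE 0.0537, edgeR adjusted p = 4.4e-11) in siUBE2M, 0.78 (SE 0.0590, 2.6e-12) in siURM1 and 0.05 (SE 0.0539, 0.42) in siNAE1 cells. The difference between siNAE1 and siUBE2M was itself called (-0.57, SE 0.0538, edgeR adjusted p = 3.2e-10), as was that between siNAE1 and siURM1 (-0.73, SE 0.0592, edgeR adjusted p = 2.0e-11).

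The retrocopy EIF2S3B, at 3.47 to 4.59 CPM in control, gave 0.48, 0.83 and 0.93, all called. Its sequence is near that of EIF2S3, so fragments of one may have been counted for the other. The siNAE1 call of EIF2S3B was lost in DESeq2 (adjusted p = 0.10 with all 4 groups) and without control replicate 2 or 3 or siNAE1 replicate 1 or 2, with values of 0.40 to 0.46. EIF2S1, the subunit that stress kinases phosphorylate, was higher in siNAE1 (0.21) and lower in siURM1 cells (-0.29), and the siNAE1 call was lost without control replicate 2 or siNAE1 replicate 2. EIF2S2 was higher in siUBE2M (0.38) and lower in siURM1 cells (-0.33), with -0.01 in siNAE1 cells. The subunits of 1 complex therefore differed in direction within siURM1 cells.

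eIF2D and eIF2A can deliver tRNA to the ribosome without the canonical eIF2 cycle. EIF2D was at 138, 149 and 135 CPM in control, 95.6, 110 and 115 in siNAE1, 70.5, 69.8 and 69.7 in siUBE2M, and 97.4 and 110 in siURM1 libraries. All knockdown libraries lay below control, and the siUBE2M libraries lay below all others at 49.7% of the control mean. Relative to control the changes on the log2 scale were -0.40 (SE 0.0711), -1.01 (SE 0.0726) and -0.44 (SE 0.0798), with edgeR adjusted p values of 1.7e-05, 6.6e-13 and 3.6e-05. EIF2A went the other way, with 0.57 in siUBE2M and 0.33 in siURM1 cells, both called, and 0.05 in siNAE1 cells.

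For eIF2B, the exchange factor of eIF2 and a sensor of its phosphorylation, 4 of 5 subunit genes were higher and 1 lower in siNAE1 cells. In both siUBE2M and siURM1 cells 1 was higher and 2 were lower. The shares of all tested genes were 27.6% higher and 27.1% lower in siNAE1, 22.7% and 22.6% in siUBE2M, and 20.8% in either direction in siURM1 cells, so that a single higher gene of 5 is near the background. EIF2B5, the catalytic epsilon subunit, was at 52.4, 64.4 and 54.7 CPM in control, 93.7, 88.9 and 97.2 in siNAE1, 84.6, 83.9 and 93.5 in siUBE2M, and 77.3 and 74.8 in siURM1 libraries. Every knockdown library was above control. On the log2 scale the differences from control were 0.71 (SE 0.0773), 0.61 (SE 0.0770) and 0.41 (SE 0.0856), with edgeR adjusted p values of 2.8e-09, 8.2e-08 and 2.0e-04.

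The gamma subunit gene EIF2B3, the partner of epsilon in the catalytic part, went down. It was at 65.5, 63.9 and 63.6 CPM in control, 47.5, 53.3 and 53.1 in siNAE1, 35.1, 31.1 and 41.4 in siUBE2M, and 45.7 and 42.0 in siURM1 libraries. No knockdown library reached control, and siUBE2M was lowest. The log2 fold changes were -0.33 (SE 0.0858), -0.84 (SE 0.0874) and -0.55 (SE 0.0969), with edgeR adjusted p values of 1.7e-03, 1.8e-09 and 2.3e-05. The genes of the regulatory subunits, EIF2B1, EIF2B2 and EIF2B4, gave 0.56, 0.36 and 0.19 in siNAE1 cells. In siUBE2M cells they gave 0.08, -0.26 and -0.20, and in siURM1 cells 0.03, -0.26 and -0.23, of which only the EIF2B2 values were called. The siURM1 value of EIF2B4 was -0.38 without siURM1 replicate 2 and -0.08 without siURM1 replicate 1. The siNAE1 call of EIF2B4 was lost without control replicate 1 or 3, siNAE1 replicate 2 or 3 or siUBE2M replicate 1, with values of 0.14 to 0.21. The siUBE2M call of EIF2B2 was lost without control replicate 2 or siUBE2M replicate 2, and its siURM1 call without control replicate 2 or 3, siUBE2M replicate 1 or either siURM1 library, with values of -0.27 to -0.14.

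eIF3, the largest factor, holds the small subunit and its partners together. Of its 14 tested genes, 8 were higher in siNAE1, 10 in siUBE2M and 8 in siURM1 cells, while 1, 2 and 2 were lower. Of all tested genes 27.6%, 22.7% and 20.8% were higher and 27.1%, 22.6% and 20.8% lower. The median log2 fold changes of the 14 were 0.21, 0.44 and 0.27, and the siNAE1 median was 0.088 with library totals alone. The scaffold subunit gene EIF3A was at 544, 522 and 559 CPM in control, 634, 707 and 640 in siNAE1, 876, 896 and 846 in siUBE2M, and 828 and 734 in siURM1 libraries. All knockdown libraries were above control, with siUBE2M highest. The log2 fold changes of EIF3A were 0.29 (SE 0.0599), 0.69 (SE 0.0600) and 0.53 (SE 0.0662), with edgeR adjusted p values of 1.5e-04, 4.8e-11 and 9.3e-08.

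EIF3G, which binds RNA and eIF4B, was at 154, 167 and 150 CPM in control, 224, 237 and 261 in siNAE1, 221, 218 and 253 in siUBE2M, and 262 and 249 in siURM1 libraries. The 3 knockdowns lay above control and overlapped each other. Against control the log2 fold changes were 0.61 (SE 0.0677), 0.56 (SE 0.0675) and 0.70 (SE 0.0742), with edgeR adjusted p values of 3.2e-09, 4.2e-08 and 3.4e-09.

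EIF3L was at 249, 251 and 270 CPM in control, 334, 343 and 339 in siNAE1, 413, 405 and 410 in siUBE2M, and 398 and 370 in siURM1 libraries. It also lay above control in every knockdown library, with log2 fold changes of 0.40, 0.67 and 0.58. In GENCODE v44, 41.1% of its exonic bases are shared on the same strand with ENSG00000279738. EIF3B, the other core scaffold, gave 0.43, 0.36 and 0.17, and EIF3F 0.32, 0.50 and 0.52, all called. The siURM1 call of EIF3B was lost without either siURM1 library or without control replicate 1 or 2, with values of 0.15 to 0.19.

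EIF3E, EIF3H and EIF3M encode further subunits of the core. In siUBE2M cells they rose by 0.47, 0.45 and 0.44 and in siURM1 cells by 0.38, 0.53 and 0.40, while in siNAE1 cells they gave 0.05, 0.08 and 0.06 and none was called. EIF3D, which can bind caps of certain mRNAs, gave 0.18, 0.30 and 0.01, of which the siNAE1 and siUBE2M values were called. EIF3I gave 0.25 and -0.29 in siNAE1 and siURM1 cells, both called, and EIF3K was lower in siUBE2M cells (-0.33).

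EIF3J, a loosely bound subunit that helps to release mRNA from the small subunit, was the eIF3 gene lower in every knockdown. It was at 102, 117 and 116 CPM in control, 91.9, 98.2 and 93.7 in siNAE1, 71.9, 66.0 and 75.7 in siUBE2M, and 64.5 and 67.8 in siURM1 libraries. The siNAE1 libraries lay just under control, and the other knockdowns lay lower and overlapped each other. In the order siNAE1, siUBE2M and siURM1 the log2 fold changes were -0.24 (SE 0.0711), -0.65 (SE 0.0718) and -0.76 (SE 0.0817), with edgeR adjusted p values of 4.8e-03, 6.6e-09 and 5.1e-09.

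The largest fold change of all 49 genes, that of EIF3CL in siNAE1 cells, rested on 2 of 3 libraries. EIF3CL (chr16:28379579-28403879) received 268, 175 and 170 counts in control, 803, 1206 and 122 in siNAE1, 146, 124 and 113 in siUBE2M, and 181 and 154 in siURM1 libraries. The siNAE1 replicates 1 and 2 were far above all other libraries, and siNAE1 replicate 3 lay within the range of the rest. The fitted log2 fold change was 2.07 (SE 0.316, edgeR adjusted p = 1.3e-06), and its groups overlapped. EIF3C (chr16:28688558-28735730) received 529, 551 and 439 counts in the same siNAE1 libraries, within the control range of 476 to 847 for all but the last.

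EIF3CL took 60.3%, 68.6% and 21.7% of the summed counts of the pair in the siNAE1 libraries, beside 17.1% to 36.0% in control. Summed over the pair, the log2 fold change was 0.90 (SE 0.1995, edgeR adjusted p = 2.9e-04) in siNAE1, 0.26 (SE 0.202, edgeR adjusted p = 0.31) in siUBE2M and -0.17 (SE 0.231, edgeR adjusted p = 0.58) in siURM1 cells. The summed level in siNAE1 replicate 3, 50.3 CPM, lay within the control range of 40.8 to 62.8. EIF3C alone was called in siUBE2M cells (0.45, edgeR adjusted p = 0.043), with 73.2, 47.5 and 30.76 CPM beside 28.7 to 52.1 in control, and gave 0.09 without siUBE2M replicate 1 (edgeR adjusted p = 0.69). That call was also lost without control replicate 1 or 3 or siNAE1 replicate 2 or 3, with values of 0.30 to 0.45. Without control replicate 2 the value was 0.78.

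Among the late factors, EIF5B, the GTPase of subunit joining, had the largest decrease in siURM1 cells (ENSG00000158417, chr2:99337353-99401326). It was at 203, 227 and 226 CPM in control, 178, 189 and 163 in siNAE1, 161, 154 and 165 in siUBE2M, and 79.1 and 94.2 in siURM1 libraries. Both siURM1 libraries were below all others, and the other knockdowns overlapped each other just under control. The siURM1 mean was 39.7% of control (log2 fold change -1.33, SE 0.0817, edgeR adjusted p = 2.3e-14), beside -0.30 (SE 0.0689, 3.6e-04) in siNAE1 and -0.45 (SE 0.0689, 2.7e-06) in siUBE2M cells. The siNAE1 level was above the siURM1 level by 1.03 (SE 0.0816, edgeR adjusted p = 1.1e-11). The siUBE2M level was above the siURM1 level by 0.89 (SE 0.0813, edgeR adjusted p = 3.0e-10).

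EIF5, the GTPase activator of eIF2, was higher in siNAE1 cells, with 432, 462 and 395 CPM beside 259 to 273 in control (log2 fold change 0.70), and gave -0.03 and -0.09 in siUBE2M and siURM1 cells. EIF6, which keeps the large subunit from joining too early, was called lower in 2 knockdowns. It was at 125, 130 and 112 CPM in control, 118, 126 and 135 in siNAE1, 70.3, 61.4 and 81.1 in siUBE2M, and 93.6 and 88.5 in siURM1 libraries. The siNAE1 libraries overlapped control and the others lay below it, with log2 fold changes of 0.04, -0.79 and -0.43.

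EIF5A, which carries hypusine and helps ribosomes through elongation and termination, rose by 0.54 in siNAE1 and 0.30 in siURM1 cells and gave 0.06 in siUBE2M cells. EIF5A2 was at 6.46, 8.18 and 7.51 CPM in control, 13.7, 12.2 and 10.9 in siNAE1, 10.3, 6.49 and 10.0 in siUBE2M, and 9.74 and 10.7 in siURM1 libraries. The siNAE1 and siURM1 libraries lay above control, and siUBE2M replicate 2 lay within it. Its log2 fold change was 0.73 (SE 0.159, edgeR adjusted p = 2.1e-04) in siNAE1, 0.27 (SE 0.162, 0.18) in siUBE2M and 0.47 (SE 0.176, 0.032) in siURM1 cells. The siURM1 call was lost in DESeq2 (adjusted p = 0.078 with all 4 groups) and without either siURM1 library or control replicate 1, with values of 0.39 to 0.54. EIF5AL1, a copy of EIF5A whose fragments may be shared with it, gave 0.60, 0.13 and 0.30, the first called.

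The knockdowns were also compared with each other. Between siNAE1 and siURM1 cells 21 genes were higher and 11 lower of 49, against 19.5% and 19.1% of all tested genes. Between siNAE1 and siUBE2M cells 26 were higher and 13 lower, against 22.7% and 21.6%. Between siUBE2M and siURM1 cells 10 were higher and 9 lower, against 16.7% and 18.3%. A change of at least 1 on the log2 scale was called for 3, 1 and 1 of the 49, against 6.76%, 7.84% and 5.41% of all. The medians were 0.21, 0.21 and -0.02, the last of which was 0.01 with library totals alone. The 9 lower genes of the last comparison became 4 without siUBE2M replicate 2, 5 without siURM1 replicate 2, and 6 without siUBE2M replicate 1 or siURM1 replicate 1.

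The 10 genes with a pyrimidine tract at an annotated start were set beside the matched genes without one, as a description with no test. In siUBE2M cells 8 of the 10 were higher and 2 lower (EIF2D and EIF3K), with a median log2 fold change of 0.47. In siURM1 cells 7 were higher and 1 lower (EIF2D), with a median of 0.43. In siNAE1 cells 5 were higher and 1 lower, with a median of 0.12, which was -0.006 with library totals alone. The 31 tested genes without a tract had medians of 0.22 in siNAE1, -0.02 in siUBE2M and -0.17 in siURM1 cells, with 18, 8 and 8 higher and 7, 9 and 14 lower. Over all 795 tested protein-coding genes with a tract the medians were 0.05, 0.09 and 0.09, and over the 10224 without one they were 0.02, 0.01 and 0.00. Of the 795 genes, 35.1%, 34.1% and 34.2% were higher and 29.4%, 22.3% and 21.4% lower in siNAE1, siUBE2M and siURM1 cells. Of the 10224, 32.2%, 26.5% and 24.3% were higher and 29.0%, 26.0% and 23.6% lower. Without the ribosomal proteins and the initiation factors, the 738 remaining genes with a tract had medians of 0.015, 0.068 and 0.066. With library totals alone the medians of the 31 genes were 0.091, -0.082 and -0.255. The 10 genes include EIF2S3 and its copy, whose counts are not independent.

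Other genes of translation were described in the same fits, from lists of fixed membership. Of 22 genes that act with the initiation factors (poly(A)-binding proteins, helicases, kinases and regulators), 8 were higher and 8 lower in siNAE1, 10 and 7 in siUBE2M, and 6 and 11 in siURM1 cells, with medians of 0.00, 0.10 and -0.16. A change of at least 1 on the log2 scale was called for 2 of them. PDCD4, an inhibitor of eIF4A, was at 116 to 120 CPM in control and 43.2 to 50.1 in siNAE1 libraries (log2 fold change -1.31, SE 0.0709, edgeR adjusted p = 2.9e-16), with -0.04 in siUBE2M and -0.44 in siURM1 cells. PAIP2, a repressor of poly(A)-binding protein, was at 84.7 to 89.0 CPM in control and at 37.9 and 42.8 in siURM1 libraries (-1.09, SE 0.0858, edgeR adjusted p = 5.8e-12), with -0.09 and -0.47 in siNAE1 and siUBE2M cells. MCTS1 and DENR, whose proteins together resemble eIF2D, were lower in every knockdown: MCTS1, chosen with DENR after the values were seen, gave -0.87, -0.96 and -0.79 and DENR -0.20, -0.24 and -0.83. ABCE1 (-0.37, -0.29 and -0.41) and PAIP1 (-0.27, -0.52 and -0.37) were also called lower in every knockdown. CYFIP1, DDX3X, MKNK2 and PABPC4 were called higher in every knockdown. Of all tested genes, 9.62% were lower and 9.3% higher in every knockdown.

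The genes of cytosolic ribosomal proteins (83 tested) had medians of 0.30, 0.20 and 0.29 (0.175 in siNAE1 cells with library totals alone), with 57, 48 and 54 higher and 8, 4 and 5 lower. Those of the cytosolic aminoacyl-tRNA synthetases (20 tested), which charge tRNAs, had medians of -0.64, -0.39 and -0.41, with 2, 4 and 3 higher and 15, 12 and 15 lower. The elongation and termination factors (12 tested) had medians of 0.06, -0.16 and -0.01, with 4, 3 and 3 higher and 3, 5 and 0 lower. For the 0 lower genes in siURM1 cells, 1 gene was lower at an unadjusted p under 0.05 in edgeR, and DESeq2 also called 0. With library totals alone the siNAE1 median of these 12 turned to -0.062 and their siURM1 median was -0.102, with 1 gene called lower. The medians of the 22 genes were -0.120, 0.045 and -0.254, so that the siNAE1 median changed sign. That scaling shifts all genes alike, with medians over all tested genes of -0.127, -0.05 and -0.111. No conclusion about the lists is therefore drawn from these sign changes. The initiation factor genes, with medians of 0.21, 0.13 and -0.05, lay between the ribosomal proteins and the synthetases in each knockdown. The shares of all genes called are those given above for each comparison, and no list was tested against another.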

How the data were processed

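Per the labels and the methods, the authors used fastp for trimming, HISAT2 2.0.5 for alignment to GRCh38 and featureCounts 1.5.0-p3 for counting. They deposited counts without normalization and FPKM values per listed gene length. Which annotation and strand setting the counting used is not given in the sources used here, so overlapping genes may share fragments, although the libraries were strand-specific. No column was left unused.

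Counts of all genes were analysed with edgeR 4.0.16 in R 4.3.3: filterByExpr, TMM scaling and 1 quasi-likelihood fit of 11 libraries in 4 groups, with Benjamini-Hochberg adjustment over 18368 genes, called at an adjusted p under 0.05. The common biological coefficient of variation was 7.06%. Each SE is the absolute log2 fold change divided by the square root of the quasi-likelihood F statistic. It therefore rests on a spread estimated over all groups and moderated across genes. Fold changes of FPKM were not tested. The fit was also run on simulated counts that gave every gene the same dispersion, unlike the data, and no result here rests on that run.

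The genes, lists and tests were chosen with earlier results of these data known. Genes with values per library were those called with a change of 1 or more on the log2 scale in a knockdown, the 3 highest and 3 lowest called at 10 CPM or more, and the gene of each factor with the largest mean change. EIF6 and the ranges of other genes were added after its values were seen. Exon overlaps were taken from GENCODE v44 and start windows from RefSeq. The alternatives were RLE factors, library totals, other filters, DESeq2 1.42.0, fits of 2 groups, a replicate block, a fold threshold and leaving out each library, and the sum of EIF3C and EIF3CL was chosen after seeing the data.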

Additional observations from a re-analysis of the deposited data

Results flagged for a closer look

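These differences between knockdowns were tested directly in the fit of all groups and were called with a difference of 1 or more on the log2 scale, each given with its SE and its edgeR adjusted p value after Benjamini-Hochberg adjustment. EIF4G2 was higher in siNAE1 than in siURM1 cells by 1.79 (SE 0.0667, adjusted p = 1.2e-19) and higher in siUBE2M than in siURM1 cells by 1.13 (SE 0.0650, adjusted p = 9.8e-15). EIF5B was higher in siNAE1 than in siURM1 cells by 1.03 (SE 0.0816, adjusted p = 1.1e-11). EIF3CL was higher in siNAE1 than in siURM1 cells by 2.27 (SE 0.375, adjusted p = 1.1e-05) and than in siUBE2M cells by 2.57 (SE 0.335, adjusted p = 1.5e-07). The call against siURM1 was lost in DESeq2 with only the 2 groups compared, at 2.25 (DESeq2 adjusted p = 0.06). In both comparisons siNAE1 replicate 3, at 10.9 CPM, stood apart from siNAE1 replicates 1 and 2, at 61.7 and 84.3 CPM. Whether the counts of EIF3CL come from EIF3C was not tested.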

How the results depend on the processing

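The counts of called initiation factor genes stayed within 1.5 times under RLE factors, library totals alone, no filter, 10 counts in every library, DESeq2 with 4 or 2 groups, and edgeR with 2 groups. With a change of 1 or more on the log2 scale required, the higher and lower genes were 2 and 1 in siNAE1, 1 and 2 in siUBE2M, and 1 and 1 in siURM1 cells against control. They were 3 and 0 for siNAE1 against siURM1, 1 and 0 for siUBE2M against siURM1, and 1 and 0 for siNAE1 against siUBE2M in edgeR, where the lowest values were -0.90, -0.57 and -0.79, so that no gene could pass at any p. That threshold is stricter by construction.

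With 1 library left out, the higher genes numbered 24 to 28, 20 to 24 and 18 to 21 in siNAE1, siUBE2M and siURM1 cells against control, and the lower genes 9 in every case, 11 to 16 and 15 to 18. Between siNAE1 and siURM1 they were 17 to 23 and 9 to 11, between siNAE1 and siUBE2M 24 to 26 and 12 to 14, and between siUBE2M and siURM1 8 to 10 and 4 to 11. When a siURM1 library was left out, the remaining one was assumed to vary like the other groups.

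Replicate numbers did not pair the samples: over 15 pairs of libraries with the same number the correlation of deviations was -0.0657 to 0.0787. With the replicate block, 27 and 9 genes were called higher and lower in siNAE1, 23 and 13 in siUBE2M and 21 and 16 in siURM1 cells, and the siURM1 call of EIF2B2 was lost (-0.23, edgeR adjusted p = 0.072).

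For the genes named with full values, 1113 of 1140 alternative values kept their direction and side of the threshold, 19 lost the call, 5 gained one and 3 that had not been called changed sign. These were EIF2S3 in siNAE1 cells (0.0527, and -0.0718 with library totals alone), EIF3CL in siURM1 cells (-0.194, and -0.284 to 0.0413 with 1 library left out, the highest without control replicate 1) and EIF4E3 in siUBE2M cells (-0.0651, and -0.113 to 0.0339 with 1 library left out, the highest without control replicate 3). With the counts of EIF3C and EIF3CL summed, an alternative chosen after seeing the data, the uncalled siUBE2M value of EIF3CL turned from -0.50 to 0.26 (edgeR adjusted p = 0.31). EIF1AY, EIF4E1B and EIF4EBP3 had at most 6 counts in any library and were not tested, and the siURM1 comparisons rest on 2 libraries.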
